A study of Homo sapiens with 6 samples.

Results

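The Sprouty genes SPRY1, SPRY2, SPRY3 and SPRY4, the Spred genes SPRED1, SPRED2 and SPRED3, and IL17RD, which encodes SEF, were followed in human induced pluripotent stem cell (hiPSC) aggregates grown with or without 2 medium additives. They are the 8 genes of 19977 in the count data whose Ensembl identifier maps to one of these symbols in GENCODE 44, and all 8 were counted in each library and passed the filter on low counts. The cells were NCRM-1, a wild-type hiPSC line made from CD34+ cord blood with episomal vectors, seeded as single cells in vertical wheel bioreactors and sequenced after 4 days. In 3 samples the medium was E8 with 10 mg/ml polyethylene glycol and 0.1 µg/ml heparin as sodium salt (PEG and HS), and in 3 it was E8 alone (E8 control). In both, 50% of the medium was replaced on day 2. Both media therefore share the cell line, the vessel type, E8, which supplies FGF2, and the culture time, and neither additive was sequenced on its own. The labels read as 1 treated and 1 control bioreactor, so the effects of vessel and of medium cannot be told apart, and p-values measure only the spread between samples that may come from one culture. The treatment text of the labels describes PEG and heparin for all 6 samples, and the medium given for each sample was followed here.

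Fibroblast growth factors (FGFs) bind receptor tyrosine kinases at the cell surface, and the receptor passes the signal through adaptor proteins to RAS, RAF, MEK and ERK. Active ERK switches on genes whose products dampen the same cascade, and many of the genes described here are known for this negative feedback. Sprouty proteins act between the receptor and RAF, Spred proteins bring the RAS inactivator neurofibromin (NF1) to the membrane, and SEF is a transmembrane protein that acts at the receptor and on the MEK and ERK step. In human pluripotent cells, FGF2 and ERK activity are part of what maintains the undifferentiated state.

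Libraries held 26991279 to 36185138 reads counted on genes, and mitochondrial genes took 4.54% of them in PEG and HS replicate 3 and 5.0% to 5.16% in the others. That library also had the lowest share in its 10 most counted genes, 5.77% against 6.07% to 6.32%. Without it, the same 7 of the 8 genes described next were called higher, with log2 fold changes from 0.215 (SPRED2) to 0.809 (SPRY4). Pluripotent stem cell markers were abundant, with a summed level of 9342 to 9505 CPM (counts scaled to 1000000 per library) with PEG and HS against 8954 to 9093 CPM in E8 control. Of these 12 markers, PEG and HS had 6 higher and 3 lower (the same edgeR test as below). POU5F1 (log2 fold change 0.233) and NANOG (0.552) were among the 6. The 3 lower ones were SOX2 (-0.591, the largest change of the 12), LIN28A (-0.301) and SALL4 (-0.245). None of the 12 was under 1 CPM in all libraries. Beside these and the following counts, 12.2% of all genes tested were called higher and 13.1% lower. An unadjusted edgeR p under 0.05 was reached by 5945 of the 16505 genes tested, in either direction. Markers of other cell types also differed. Of 12 neuroectoderm markers 10 were lower in PEG and HS, with a summed level of 591 to 627 CPM against 811 to 841 CPM. Most of that sum was NES (542.8 against 642.8 CPM, log2 fold change -0.244), while the median log2 fold change of the list was -1.037. Of 8 trophectoderm and amnion markers tested 4 were lower, with a sum of 18.7 to 19.9 CPM against 33.9 to 36.3 CPM. The sums were 58.1 to 61.1 CPM against 48.3 to 51.2 CPM for 6 neural crest markers (1 higher, 1 lower), 64.4 to 67.4 CPM against 57.6 to 62.0 CPM for the primitive streak and mesoderm markers (1 higher, 2 lower of 8 tested), and 4.06 to 4.70 CPM against 5.58 to 6.71 CPM for the endoderm markers (0 of 6 tested called by edgeR, DESeq2 or limma-voom, 3 lower at an unadjusted p under 0.05). Most of the neural crest sum was FOXD3 (51.87 against 41.58 CPM) and most of the mesoderm sum KDR (59.83 against 52.44 CPM), the 1 called higher in each list, while the median log2 fold changes of the lists were -0.396 and -0.119. The part of these cell type differences in the results below was not tested. In bulk RNA, a change in the number of cells of a type and a change in the RNA per cell cannot be told apart.

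The feedback inhibitors were higher in PEG and HS, with SPRY3 as the exception. In the quasi-likelihood test of edgeR, with Benjamini-Hochberg adjustment over 16505 genes, 7 of the 8 genes rose at an adjusted p under 0.05 and 0 fell, also 0 at an unadjusted p under 0.05. DESeq2 and limma-voom each called 7. The 8 genes and the gene lists were chosen with earlier results of these data known, so the shares over all genes are given for description only. Over all genes tested, 25.3% were called, 12.2% higher and 13.1% lower, and among the 10487 genes counted at least as highly as the lowest of the 8 (8.07 CPM), 17.0% were called higher. An unadjusted edgeR p under 0.05 was reached by 5945 of the 16505 genes, in either direction. The median log2 fold change was 0.43 over the 8 genes and 0.003 over all genes. For the same 7 genes each PEG and HS library lay above each E8 control library, a separation seen in 19.5% of all genes tested, with 19.8% separated the other way. IL17RD and SPRY4 rose most, each more than 1.5-fold, a size and call reached by 0.830% of genes tested. Against a change of 1.2-fold, 5 of the 8 genes passed (IL17RD, SPRY4, SPRY2, SPRED3 and SPRED1), where 1.30% of genes tested were called higher.

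**Figure D1:**
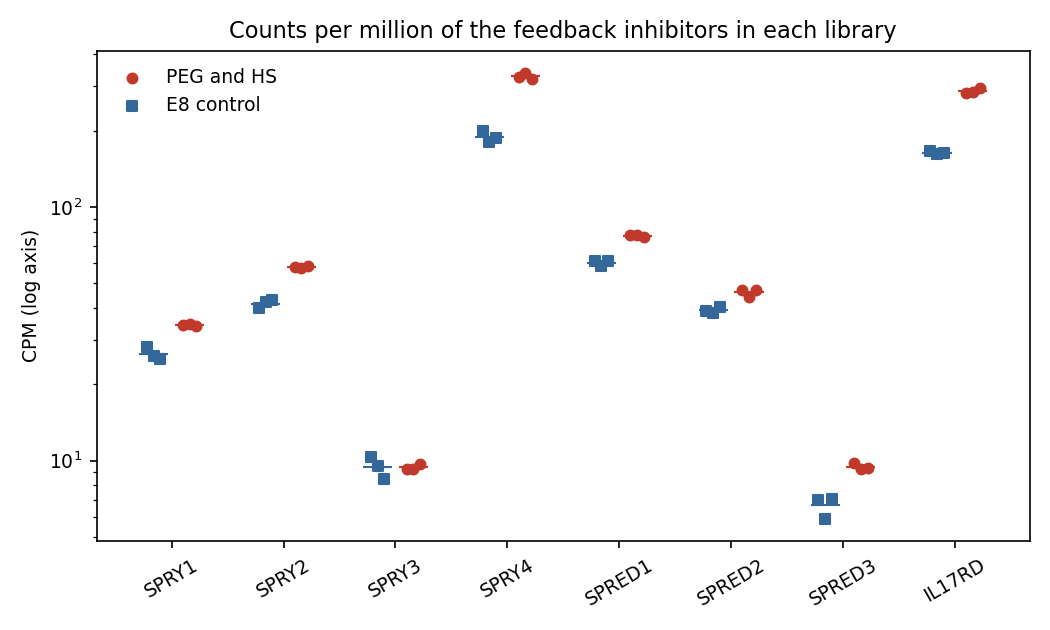
CPM (TMM-scaled, log axis) of each feedback inhibitor in each of the 6 libraries, red circles for PEG and HS and blue squares for E8 control, with a line at the mean of 3. The red points lie above the blue ones for 7 genes, and SPRY3 overlaps between 8.508 and 10.38 CPM.

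SPRY4 was the most abundant of the Sprouty genes. Its protein inhibits the cascade between growth factor receptor and RAF. It was counted 10971, 9526 and 10824 times in the PEG and HS libraries and 5398, 5860 and 6756 times in the E8 control libraries. Scaled to library size this was 325.3, 337.1 and 319.8 CPM in PEG and HS against 200.1, 180.4 and 187.2 CPM in E8 control. The lowest PEG and HS library was far above the highest E8 control library. The means were 327.4 ± 8.83 and 189.2 ± 10.01 CPM (SD, n = 3 each), a log2 fold change of 0.79 with a standard error (SE) of 0.0356, or 1.73-fold (edgeR adjusted p = 2.47e-10). By log2 fold change SPRY4 ranked 327 from the highest of all genes tested.

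SPRY4 lies at chr5:142310427-142326455 on the minus strand of GRCh38 and is transcribed toward lower coordinates, with the lncRNA SPRY4-AS1 on the other strand, which is not among the genes counted here. A stretch from -187 to -10 before the main annotated start (MANE Select, position 142325021) is shown. It holds a repeated core that none of the RefSeq windows of the 8 genes carries in this number. The core is TGAATG, the shared start of the octamers TGAATGAA and TGAATGGA bound by CIC, a repressor whose targets are released by ERK signalling. The stretch covers chr5:142325031-142325208 (GRCh38, minus strand, outside annotated exons), and the capitals mark the core, here read on the opposite strand as CATTCA.
SPRY4: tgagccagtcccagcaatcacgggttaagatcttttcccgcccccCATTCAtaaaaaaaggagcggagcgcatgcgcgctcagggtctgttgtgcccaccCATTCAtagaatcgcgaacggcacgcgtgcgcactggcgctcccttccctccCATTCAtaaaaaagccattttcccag
The 3 cores lie at -142 to -137, -87 to -82 and -35 to -30 from the start. Each continues as TGAATGGG, which is neither octamer. RefSeq windows of 300 bases were searched on both strands (34961 windows, 250 bases before and 50 from a start, GRCh38.p14). Of these, 11.8% held the core at least once and 0.237% at least 3 times. Of the 15 windows of the 8 genes, 2 held it at least once (SPRED2 and SPRED3). The SPRY4 stretch was chosen for its 3 cores, so the 0.237% describes a frequency and tests nothing. TGAATGGG was searched only after this sequence had been seen. It occurred in 0.967% of windows and at least 3 times in 1 window, that of SPRY4-AS1, which covers the same bases.

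SPRY2 encodes a widely expressed Sprouty protein that binds the ubiquitin ligase CBL and the adaptor GRB2. It stood at 57.95, 57.4 and 58.51 CPM in PEG and HS against 39.92, 42.05 and 42.93 CPM in E8 control. The PEG and HS libraries were closely grouped and did not reach down to the control libraries. SPRY2 lies at chr13:80335976-80341126 (minus strand), and its transcripts shared 0.00% of their 31-base words with other genes. The log2 fold change was 0.48 (SE 0.0384, 1.39-fold, edgeR adjusted p = 2.24e-07). SPRY1, a close relative known for its role in kidney development, stood at 34.28, 34.43 and 33.98 CPM in PEG and HS against 27.95, 25.82 and 25.14 CPM in E8 control. It too was higher in each PEG and HS library, by a log2 fold change of 0.38 (SE 0.0487, 1.30-fold, adjusted p = 2.81e-05), and lies at chr4:123396795-123403760 (plus strand). Against a change of 1.2-fold SPRY1 did not pass (edgeR adjusted p = 0.0568).

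SPRY3, which encodes the remaining Sprouty protein, did not follow the others. It stood at 9.252, 9.272 and 9.692 CPM in PEG and HS against 10.38, 9.573 and 8.508 CPM in E8 control, and the control libraries spanned the treated ones. The log2 fold change was -0.005 (SE 0.0813, edgeR adjusted p = 0.98), with a 95% interval of 0.884- to 1.12-fold. A rise of the size seen in the other Sprouty genes lies outside this interval. SPRY3 (chrX:155612572-155782459, plus strand) overlaps TMLHE on the other strand, and whether reads were counted by strand is not stated in the sources used here.

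**Figure D2:**
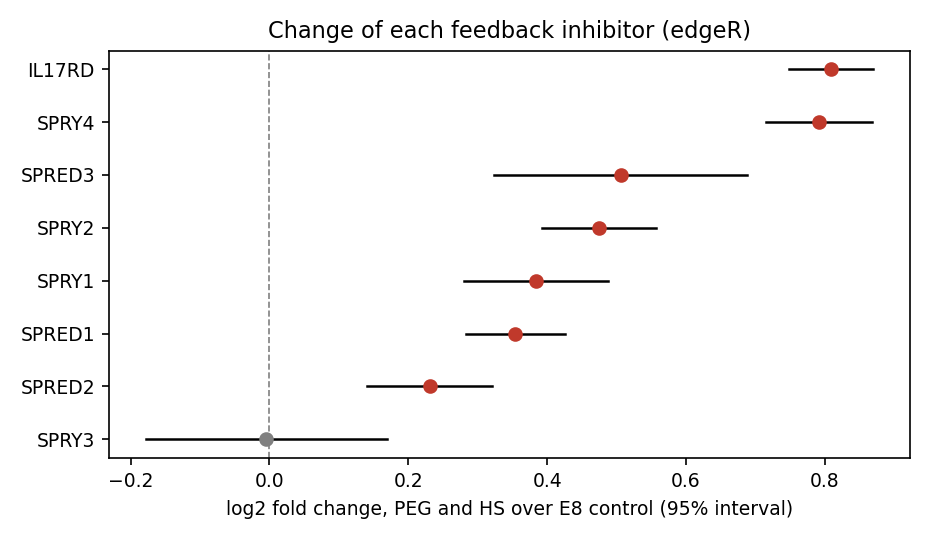
Log2 fold change of each feedback inhibitor, PEG and HS over E8 control, as edgeR estimate (point) with its 95% interval (line), red where the adjusted p was under 0.05 and grey for SPRY3. IL17RD (0.81) and SPRY4 (0.79) lie apart from the other 6 genes, and the interval of SPRY3 spans 0.

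SPRED1, mutated in Legius syndrome, encodes a Spred protein that brings NF1 to RAS at the membrane. It stood at 77.25, 77.26 and 76.47 CPM in PEG and HS against 61.24, 58.3 and 61.19 CPM in E8 control, with no overlap. The log2 fold change was 0.35 (SE 0.0335, 1.28-fold, edgeR adjusted p = 1.26e-06). SPRED1 lies at chr15:38252836-38357249 (plus strand). SPRED2, of the same function, stood at 47, 44.13 and 47.1 CPM in PEG and HS against 39, 38.32 and 40.49 CPM in E8 control. It had the smallest rise among the 7 called genes, a log2 fold change of 0.23 (SE 0.0422, 1.17-fold, adjusted p = 0.000817). SPRED2 lies at chr2:65310851-65432637 (minus strand), where an lncRNA overlaps it on the same strand. SPRED3, which lacks the functional KIT-binding domain of the other Spred proteins, was counted only 189 to 329 times per library. It stood at 9.756, 9.272 and 9.367 CPM in PEG and HS against 7.006, 5.91 and 7.094 CPM in E8 control. The groups did not overlap, with a log2 fold change of 0.51 (SE 0.0853, 1.42-fold, adjusted p = 0.000413). Its 95% interval, 1.25- to 1.61-fold, was the widest among the called genes.

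SPRED3 lies at chr19:38388421-38399587 (plus strand) and was the one gene of the 8 with a full CIC octamer in a RefSeq window. The 30 bases around it, chr19:38389588-38389617 (GRCh38.p14, plus strand, 6 of the bases in annotated exons), are shown with the octamer in capitals.
SPRED3: cttgatttttgTGAATGAAatgctctctgg
The octamer starts 192 bases before the second RefSeq start of SPRED3, at -192. That start lies 1094 bases downstream of the main one, so the octamer lies inside the gene and not before its main start. TGAATGAA was found in 1.66% and TGAATGGA in 1.03% of all windows. SPRY4 has a single RefSeq window among those searched, which starts from a second start 774 bases from its main one, so the stretch printed above for SPRY4 was not among them. Of the 15 windows of the 8 genes none held TGAATGGA, the ETS factor consensus CCGGAAGT (4.14% of all windows) or the CArG box of SRF (1.3%). The shorter ETS core GGAA, counted on both strands, occurred 1 to 6 times in each of the 15. Its median over all windows was 3, and 95.5% of all windows held it. The AP-1 core TGANTCA (7.68%) was found in windows of SPRED2 and SPRED3, at starts 65821 and 1094 bases from their main ones. A match is a description of letters only, and no binding was measured.

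IL17RD, a member of the interleukin 17 receptor family by sequence, encodes SEF, an inhibitor known to bind FGF receptors. It was counted 9500, 7999 and 9974 times in PEG and HS and 4483, 5244 and 5889 times in E8 control. Scaled, it stood at 281.7, 283.1 and 294.7 CPM in PEG and HS against 166.2, 161.4 and 163.2 CPM in E8 control, and the media were widely separated. The log2 fold change was 0.81 (SE 0.0284, 1.75-fold, edgeR adjusted p = 1.56e-11), rank 320 from the highest of all genes. None of the 5 other interleukin 17 receptor genes was called by edgeR (0 higher, 0 lower, median log2 fold change -0.004), nor by DESeq2 or limma-voom (0 each). Over all genes tested 25.3% were called by edgeR, so 0 of 5 says little. Of the 5 genes, 1 was under 1 CPM in all libraries. Also, 1 was lower at an unadjusted edgeR p under 0.05, which 5945 of the 16505 genes tested reached in either direction. IL17RA, the subunit shared by several receptors of the family, was at 24.81 ± 0.98 and 23.72 ± 1.2 CPM (n = 3, edgeR adjusted p = 0.446). IL17RD lies at chr3:57089982-57170306 on the minus strand, and 4.50% of the 31-base words of its transcripts also occur in other genes, the highest share among the 8. The exon-free stretch before its main start, chr3:57165376-57165603 (GRCh38, minus strand, 228 bases), is shown for comparison with SPRY4, since the 2 genes changed to a like extent. It holds 0 TGAATG cores, so no letters are in capitals.
IL17RD: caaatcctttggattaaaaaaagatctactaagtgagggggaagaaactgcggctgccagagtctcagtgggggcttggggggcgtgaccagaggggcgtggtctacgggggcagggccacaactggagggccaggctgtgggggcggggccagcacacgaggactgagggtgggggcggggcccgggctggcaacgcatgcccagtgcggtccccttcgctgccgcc

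To compare levels between genes, counts were divided by the length of the annotated exons and scaled to TPM, the length-corrected counterpart of CPM. SPRY4 had the highest level per length in both media, 197.6 ± 4.62 TPM in PEG and HS and 111.9 ± 6.36 TPM in E8 control (SD, n = 3), above 95.3% of all genes. IL17RD followed at 118.5 ± 3.47 and 66.3 ± 1.28 TPM. SPRY2 was next at 71.34 ± 0.98 and 50.2 ± 1.90 TPM, followed by SPRED1 at 39.29 ± 0.065 and 30.12 ± 1.03 TPM. Each of these neighbours was separated in every library. SPRY1 (34.16 ± 0.087 and 25.72 ± 1.45 TPM) and SPRED2 (33.11 ± 1.31 and 27.64 ± 0.945 TPM) came next and changed places between media, SPRY1 being narrowly above SPRED2 in PEG and HS and the 2 overlapping in E8 control. SPRED3 and SPRY3 were at the bottom, with 6.384 ± 0.170 against 3.523 ± 0.108 TPM in PEG and HS and 4.409 ± 0.463 against 3.48 ± 0.339 TPM in E8 control. With the length of the longest transcript instead, SPRY1 moved up to place 4 and SPRED1 down to place 6.

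**Figure D3:**
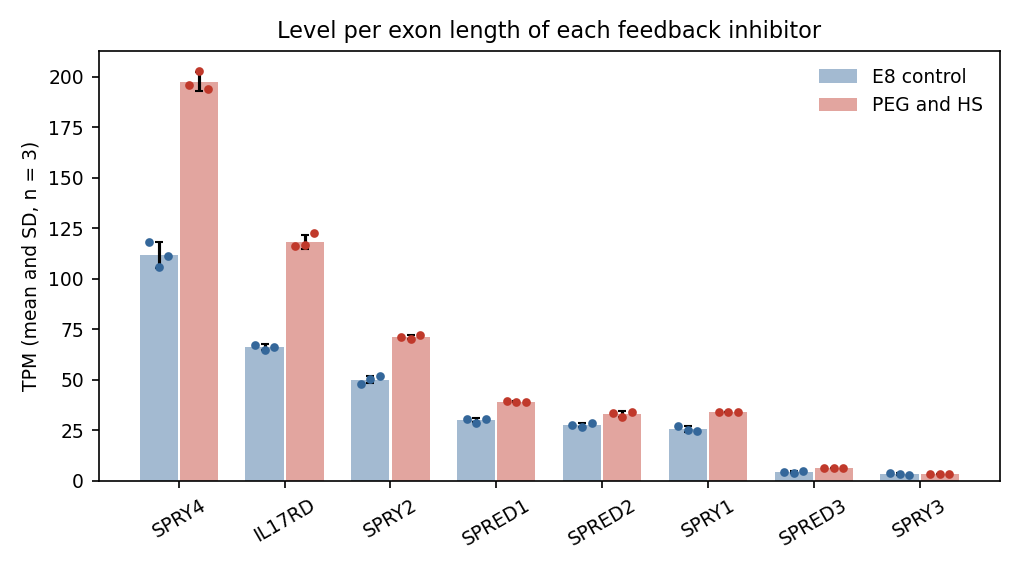
Level per exon length in TPM of each feedback inhibitor, bars for the mean and error bars for the SD of 3 libraries, points for single libraries, blue for E8 control and red for PEG and HS. SPRY4 and IL17RD stand highest in both media, and SPRED3 and SPRY3 lie under 7 TPM.

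Added together, the 8 genes reached 500.7, 504.8 and 506.2 TPM in PEG and HS and 328.2, 309.2 and 321.7 TPM in E8 control, a ratio of means of 1.58. SPRY4 and IL17RD supplied most of the difference. Their joint share of the sum was 62.73% ± 0.496 in PEG and HS and 55.71% ± 0.825 in E8 control (n = 3), and the libraries did not overlap. The Spred genes together held 15.64% ± 0.320 and 19.44% ± 0.424, again without overlap, although each Spred gene rose. The Sprouty genes together held 60.84% ± 0.762 and 59.82% ± 0.454, which overlapped. The summed level of the 6 genes other than SPRY4 and IL17RD was 187.8 ± 2.27 TPM in PEG and HS and 141.6 ± 2.83 TPM in E8 control, also without overlap.

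Whether the genes moved in step was read from the log2 ratio of each of 28 pairs in each library. In 23 pairs the ratio did not overlap between media, as in 48.9% of all pairs of the 10487 genes counted at least as highly as the lowest of the 8. With 3 libraries against 3, the two-sided exact permutation test cannot go below p = 0.1, or 0.12 after Benjamini-Hochberg adjustment over the pairs, so no pair could pass. The pairs were compared on log2 ratios of CPM, and the values printed next are plain ratios of TPM, with the same overlaps. The ratio of SPRY4 to IL17RD was one of the 5 that overlapped. Its TPM ratio was 1.684, 1.737 and 1.583 in PEG and HS and 1.756, 1.63 and 1.673 in E8 control. SPRY4 to SPRY2 did not overlap (2.752, 2.879 and 2.68 against 2.457, 2.103 and 2.138), and neither did SPRY4 to SPRY1 (5.782 ± 0.121 against 4.351 ± 0.142). The other overlapping pairs were SPRY1 with SPRY2, with SPRED1 and with SPRED3, and SPRY2 with SPRED3.

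A receptor, a Spred partner and a second type of ERK inhibitor were set beside the 8 genes. FGFR1, an FGF receptor, fell from 749.8 ± 13.1 to 577.8 ± 18.9 CPM (log2 fold change -0.38, edgeR adjusted p = 9.27e-08). Per length, IL17RD was 0.392, 0.3871 and 0.3987 times FGFR1 in E8 control and 0.8699, 0.8577 and 0.9522 times FGFR1 in PEG and HS, a 2.28-fold higher ratio with no overlap. NF1, the RAS inactivator that Spred proteins bring to the membrane, stood at 113.9 ± 1.1 CPM with the additives against 111.3 ± 3.33 CPM without (log2 fold change 0.03, edgeR adjusted p = 0.51). The ratio of the summed Spred level to NF1 was 7.198 ± 0.133 in PEG and HS and 5.935 ± 0.254 in E8 control, without overlap. DUSP6, the ERK phosphatase that is itself an ERK output, rose from 153.8 ± 8.61 to 265.6 ± 4.71 CPM (log2 fold change 0.79, edgeR adjusted p = 2.56e-10). The ratio of SPRY4 to DUSP6 per length was 0.7153, 0.7382 and 0.7236 in PEG and HS and 0.7216, 0.7255 and 0.7258 in E8 control, and the media overlapped.

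**Figure D4:**
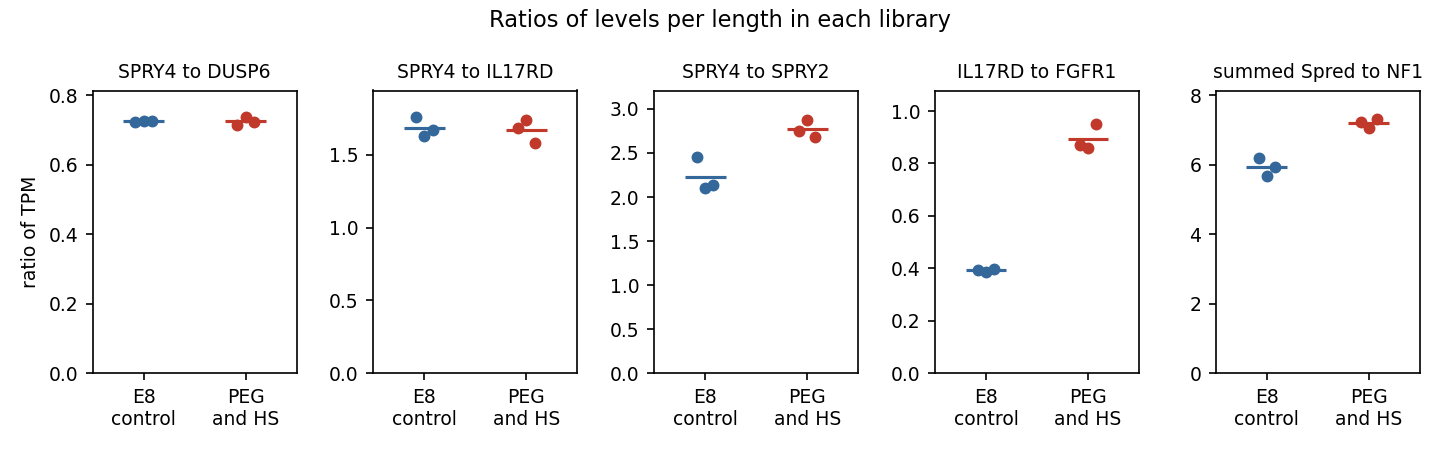
Ratios of TPM in each library, points for libraries and a line for the mean of 3, E8 control in blue and PEG and HS in red, each panel with its own axis from 0. The ratios of SPRY4 to DUSP6 and to IL17RD overlap between media, while SPRY4 to SPRY2, IL17RD to FGFR1 and summed Spred to NF1 are higher in every PEG and HS library.

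Other ERK output genes moved mostly with the inhibitors. Of 16 genes other than the 8, 11 rose and 3 fell, beside 12.2% and 13.1% of all genes tested. Their median log2 fold change was 0.44 against 0.003 over all genes. The phosphatases DUSP5 (0.83, adjusted p = 4.01e-09) and DUSP6 and the transcription factor ETV5 (0.71, adjusted p = 1.59e-09) rose most. EGR1, an immediate early transcription factor, went the other way, from 32.14 ± 1.63 to 8.552 ± 0.169 CPM (-1.91, adjusted p = 4.86e-12). The ephrin receptor EPHA4 (-1.49, adjusted p = 3.02e-10) and PHLDA1 (-0.35, adjusted p = 2.75e-05) also fell. These p-values are from the same edgeR fit.

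Of 28 genes of the cascade itself, from FGF receptor to ERK, 3 rose and 6 fell, beside 12.2% and 13.1% of all genes tested, with a median log2 fold change of -0.006. The receptors FGFR3 (55.4 ± 3.27 to 13.81 ± 0.477 CPM, log2 fold change -2.004, edgeR adjusted p = 1.14e-12), FGFR2 (-0.54, adjusted p = 3.12e-09) and FGFR1 fell most. The adaptor SHC1 (0.26, adjusted p = 8.9e-06), the receptor FGFR4 (0.18, adjusted p = 0.00205) and the RAS exchange factor SOS1 (0.10, adjusted p = 0.0438) rose. The number called higher was 2 with DESeq2 and when PEG and HS replicate 1 or 2 or E8 control replicate 2 or 3 was left out, and the number called lower was 4 without PEG and HS replicate 1 and 5 without E8 control replicate 3. Fewer genes were also called over all genes tested in each of these runs.

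For partners and other inhibitors, the background is again 25.3% of genes tested called in either direction. The values given for them are log2 fold changes from the same edgeR fit. Of 20 binding partners of Sprouty and Spred proteins 2 rose, the ERK-activated kinase MKNK1 (0.22) and the phospholipase PLCG1 (0.10), and 2 fell, the caveolar protein CAV1 (-0.42) and the CBL-binding adaptor SH3KBP1 (-0.34), with a median log2 fold change of -0.011. Of 11 RAS GTPase-activating genes 3 rose (among them RASAL1 at 0.305 and RASAL2 at 0.13) and 2 fell (RASA4 at -0.75 and DAB2IP at -0.10), with a median of 0.011. RASA4 has near-identical copies, so its count is uncertain. Of 15 other inhibitors at the receptor or RAF level 2 rose and 2 fell, with a median of -0.010. ERRFI1, which inhibits the EGF receptor, rose by a log2 fold change of 0.50 (adjusted p = 3.78e-08) and SH2B3, an adaptor that restrains cytokine signalling, by 0.38 (adjusted p = 6.09e-06), while LRIG2 (-0.22) and LRIG1 (-0.17) fell. Of 6 repressors at ERK target genes ETV6 rose (0.33, adjusted p = 6.26e-05), and ATXN1 (-0.23, adjusted p = 0.0314) and CIC (-0.08, adjusted p = 0.0495) fell. When any 1 of the 6 libraries was left out, the binding partners called higher were 0 or 1 and the repressors called lower 0 or 1. Calls over all genes tested fell too, from 2016 to between 1453 and 1751 higher and from 2157 to between 1661 and 1938 lower. Binding partners called lower were 1 when any library except PEG and HS replicate 1 was left out. RAS GTPase-activating genes called higher were 0 without PEG and HS replicate 2 or E8 control replicate 2 and 1 without E8 control replicate 1 or 3, and those called lower were 1 when PEG and HS replicate 1 or any 1 E8 control replicate was left out.

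**Figure D5:**
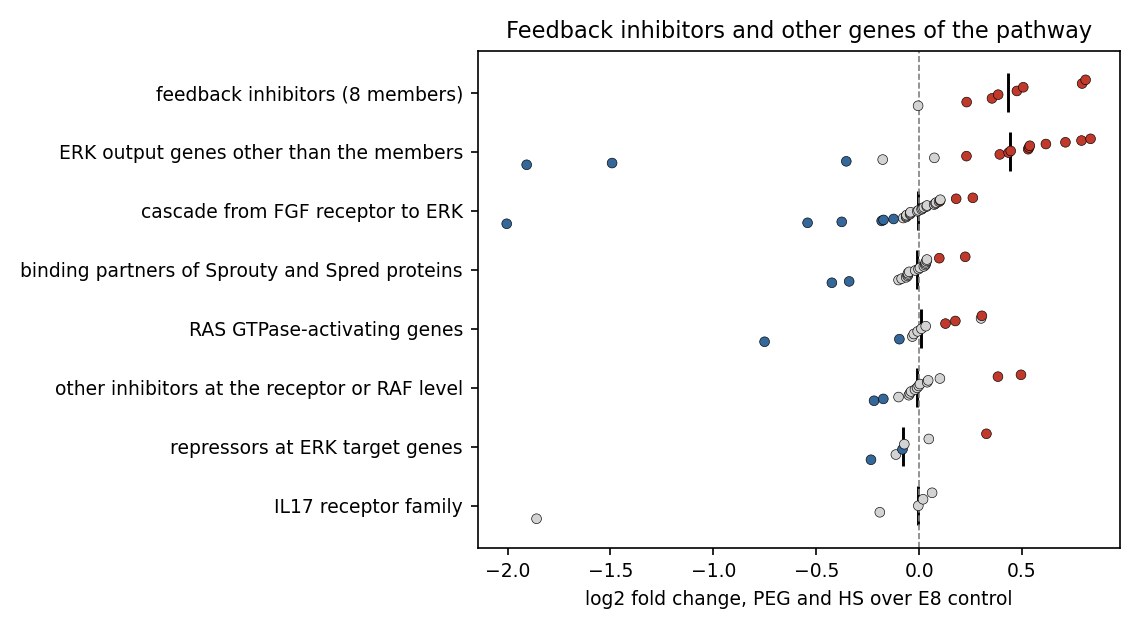
Log2 fold change of every tested gene (points, spread vertically only for legibility) of the feedback inhibitors and of 7 lists of pathway genes, red for called higher, blue for called lower and grey for not called (edgeR, adjusted p under 0.05), with a black bar at each median. The medians of the feedback inhibitors (0.43) and of the other ERK output genes (0.44) lie to the right, and those of the other 6 lists lie between -0.077 and 0.011.

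The genes whose profile over the 6 libraries was most like each inhibitor were ranked among 12970 genes by Pearson's r of log2(CPM + 0.5). For SPRY4 they were the ephrin receptor EPHA1 (r = 0.9998, log2 fold change 0.45) and DUSP6 (r = 0.9994). For IL17RD they were ITPR2, a calcium channel of the endoplasmic reticulum (r = 0.9997, log2 fold change 0.56), and SLC39A14, a metal ion transporter (r = 0.9996, log2 fold change 0.39). For SPRY2 they were TRAF3IP2 (r = 0.9989) and SOCS1 (r = 0.9987), for SPRY1 GSTT2B (r = 0.9969) and ACO1 (r = 0.9967), for SPRED1 EDEM1 (r = 0.9989) and NOLC1 (r = 0.9988), for SPRED2 L1TD1 (r = 0.9985) and DICER1 (r = 0.9981), and for SPRED3 TMEM123 (r = 0.9986) and XPO5 (r = 0.9979). SPRY3 was nearest to SEC14L4 (r = 0.9892) and MRPL17 (r = 0.9758). The points share their libraries and fall into the 2 media, so many genes that are higher in PEG and HS have a high r with the 7 called genes. From 1293 to 1501 genes had r over 0.9 with each of the 7, against 33 with SPRY3.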

How the data were processed

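Stranded libraries of polyadenylated RNA were sequenced from 3 PEG and HS and 3 E8 control samples. Per the submitters' processing notes and the methods, the authors trimmed reads with Trim Galore 0.6.7 and mapped them to GRCh38 with STAR 2.6.1 in an nf-core pipeline. They deposited raw counts per gene, not normalized and not filtered. Not given in the sources used here are the counter, its use of strand, its annotation release and how it treated multi-mapping reads.

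Of 19977 identifiers 19916 matched GENCODE 44. Genes with at least 10 counts in total (16505) were tested with edgeR 4.0.16 in R 4.3.3 (TMM, quasi-likelihood test, no covariate), with Benjamini-Hochberg adjustment and calls at an adjusted p under 0.05. CPM are TMM-scaled. The common biological coefficient of variation was 3.12%. TPM used the union of annotated exons. The code was tested on simulated counts. Depth covers counting error only. Libraries of one medium differed by more than counting error (2.576 to 3.518 in chi-square over its degrees of freedom).

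The 8 genes and the gene lists were chosen with earlier results of these data known. Of each pathway list, up to 3 called genes are named in either direction, by size of change, plus NF1, FGFR1 and DUSP6, and for each inhibitor the 2 most similar genes with at least 1 CPM in each library. IL17RA was named after its values were seen. One gene that this rule takes is not reported here. Sequences are from RefSeq windows and the GRCh38 genome, which agree in all 15 windows of the 8 genes. The alternatives were DESeq2 1.42.0, limma-voom (limma 3.58.1), other scalings and filters, a 1.2-fold threshold, the replicate number as a block, other lengths and each library left out.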

Additional observations from a re-analysis of the deposited data

How the results depend on the processing

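The calls of the 7 higher genes were kept under each of 14 alternatives of test, scaling, filter, block and left-out library. IL17RD ranged from 0.788 to 0.821 on the log2 scale, SPRY4 from 0.757 to 0.829, SPRED3 from 0.423 to 0.559 and SPRED2 from 0.211 to 0.260. SPRY3 ranged from -0.082 (without E8 control replicate 3) to 0.057 (without E8 control replicate 1) and was called in 0 of the 14, with adjusted p of 0.533 to 0.987. Against a 1.2-fold change, 215 genes were called higher and 653 lower, in place of 2016 and 2157.

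With DESeq2, binding partners were 1 higher and 1 lower, RAS GTPase-activating genes 0 higher and 1 lower, and repressors 0 lower. DESeq2 called 1614 genes higher and 1784 lower over all genes tested. With library size alone, 1 repressor was lower. With 1 library left out, the ranges were 0 to 1 binding partners higher and 1 to 2 lower, 0 to 2 RAS GTPase-activating genes higher and 1 to 2 lower, and 0 to 1 repressors lower. With the longest transcript as length, the share of SPRY4 in PEG and HS was 40.15% and that of IL17RD 21.61% (18.99% in E8 control). From plain counts, the IL17RD share was 33.78% and 30.50%, a step of construction since IL17RD is long. The cause of the other moves was not tested.

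The replicate numbers did not pair the samples, with correlations of same-numbered deviations of 0.066, 0.037 and 0.052, and PEG and HS replicate 1 was most like E8 control replicate 3 (0.068). With the replicate number as a block, 2187 genes were called higher and 2257 lower, and again 7 and 0 of the feedback inhibitors, and 12 instead of 11 ERK output genes were higher. SPRY3 and SPRED3, with 189 to 329 counts per library, had the widest intervals among the 8 genes.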
